A study of Mus musculus with 6 samples.

Results

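Olfactory receptor genes, named Olfr in the mouse, were followed in abdominal aorta. Members are genes named Olfr followed by a digit, selected on at least 5 raw counts summed over 6 libraries, with Olfr2 added as the targeted gene. This gave 51 members of 1407 Olfr genes and of 54532 genes in the table. The summed counts that chose them are given as a description; the rule did not use the difference between genotypes.

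Olfactory receptors are G protein-coupled receptors and form the largest gene family in the mouse genome. In the nose each sensory neuron uses mainly a single member, which signals through the G protein Gnal, the adenylyl cyclase Adcy3 and a cyclic nucleotide-gated channel. Class I receptors, encoded in one cluster on chromosome 7, often bind carboxylic acids, while the other members belong to class II. Some members are also transcribed outside the nose, among them Olfr78 and Olfr558 in blood vessels and Olfr2, a receptor for octanal, in vascular macrophages.

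Whole abdominal aorta was taken 7 days after an aneurysm, a widening of the artery wall, had been induced, from Olfr2 KO mice (3 libraries) and from WT mice (3 libraries). Both genotypes had been through the induction, so no library shows undisturbed aorta. The labels do not give the method of induction, the strain, the age or the way the KO was made. They also do not say whether libraries came from separate animals, so a p-value reflects variation among these libraries, which may be partly technical.

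Library totals were 17248918 to 21872027 counts in KO and 17388340 to 17987404 counts in WT. At these depths 3 counts, taken as the limit that a count of 0 allows, corresponded to 0.14 to 0.172 CPM in KO libraries and 0.163 to 0.182 CPM in WT libraries. CPM are counts scaled to the library total, after adjustment by the trimmed mean of M values (TMM). The 12 markers of olfactory sensory neurons summed to 33.6 to 44.9 CPM in KO libraries and 40.1 to 43.1 CPM in WT libraries, mostly from Gnal and Adcy3, which other cells also use. Among the defining ones, Stoml3, Rtp1 and Rtp2 had 0 counts in every library, and Cnga2, Cnga4 and Gng13 never exceeded 3 counts in a library. Others were detected in every library at low counts: Omp had 3, 8 and 15 counts in KO libraries and 5, 10 and 21 in WT libraries. Lhx2 had 4, 1 and 10 counts in KO libraries and 12, 20 and 3 in WT libraries, and Ano2 had 22, 10 and 15 in KO libraries and 11, 13 and 14 in WT libraries. The part of such cells in the receptor counts was not tested. Summed smooth muscle markers reached 1580 to 2490 CPM in KO libraries and 921 to 1390 CPM in WT libraries. In a bulk sample, fewer cells of a type and less RNA per cell cannot be told apart.

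Most coding sequences of the members shared a short conserved stretch, which shows how the transcripts discussed here are related. It holds the aspartate, arginine and tyrosine codons found at the inner end of the third transmembrane helix of this receptor class. A search found it in 43 of 48 coding sequences from GENCODE release M21. The search also took histidine in place of arginine, and phenylalanine or cysteine in place of tyrosine. Its 30 bases are shown for the 5 members with the most counts, 5′ to 3′ on the coding strand, with the 3 codons in capitals (GRCm38 coordinates: Olfr1033 chr2:86041662-86041691, plus; Olfr56 chr11:49134548-49134577, plus; Olfr1034 chr2:86046829-86046858, plus).
Olfr1033: atggcttttGACAGGTACatggcaattgga
Olfr56: atggcttatGATCGCTATgtggccattagc
Olfr1034: atggcctttGATCGCTACatggccatctgc
Olfr558: atggcctttGACCGCTATgtggccatttgc
Olfr78: atggcctttGACCGGTACgtggctatctgc

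The stretches of Olfr558 and Olfr78 lie at chr7:102709618-102709647 (plus strand) and chr7:102742624-102742653 (minus). In end-to-end alignments of coding sequences, with gaps left out, identity of the members to Olfr2 ran from 61.5% to 70.6% with a median of 64%. Olfr1033 and Olfr1034, which lie side by side, were 75.8% identical, and Olfr558 and Olfr78 were 66.7% identical. Other neighbouring pairs were far closer, with 96% for Olfr544 and Olfr545 and 98.1% for Olfr110 and Olfr111, so reads of either gene in those pairs are uncertain.

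Most of the family had no reads in the aorta. Of 1407 Olfr genes, 1277 had 0 counts, 80 had 1 to 4 counts and 50 had at least 5. The 80 genes just below the rule held 146 counts in all. At the edge of the rule, Olfr1394 and Olfr156 had 5 counts each and Olfr1029 and Olfr172 had 4 each, so membership there turned on a single read. Protein-coding Olfr genes reached the rule in 4.05% of cases and pseudogenes in 1.47%. Among other chemoreceptor families in the same table, at least 5 counts were found for 4 of 211 Vmn1r genes, 9 of 122 Vmn2r genes, 1 of 40 Tas2r genes and 0 of 16 Taar genes.

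The members' 16109 counts were concentrated in few genes. Olfr1033 alone held 74.9% of them, the 5 members with the most counts held 91.9%, and the 38 members below the expression filter held 3.13%. By level per length of annotated exon, averaged over the 6 libraries, Olfr1033 had 25.2 CPM per kb and Olfr56, the next, had 2.71, a ratio of 9.3. Olfr1034 and Olfr558 followed at 1.33 and 1.3 CPM per kb. Their ranges over libraries, 0.397 to 1.95 and 0.769 to 2.45, overlapped, so their order was not resolved. Olfr99, Olfr173 and Olfr78 came next at 0.588, 0.346 and 0.328 CPM per kb, and all other members averaged at most 0.248.

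Summed over all members, olfactory receptor reads reached 177, 147 and 163 CPM in KO libraries, against 181, 79.3 and 115 CPM in WT libraries. The KO libraries lay within the WT range, with a KO mean of 163 ± 15.3 CPM and a WT mean of 125 ± 51.7 CPM (SD, n = 3 each). The log2 ratio of the means was 0.38. Without Olfr1033 the sums were 44.4, 28.1 and 36.5 CPM in KO libraries and 46.9, 29.8 and 33.8 CPM in WT libraries, and the log2 ratio was -0.02. The number of members with at least 1 count was 41, 42 and 39 in KO libraries and 41, 36 and 37 in WT libraries. At the smallest library total the numbers to be found were 41, 41.2 and 37.7 in KO and 40.9, 35.9 and 36.9 in WT, so depth moved them by little.

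**Figure D1:**
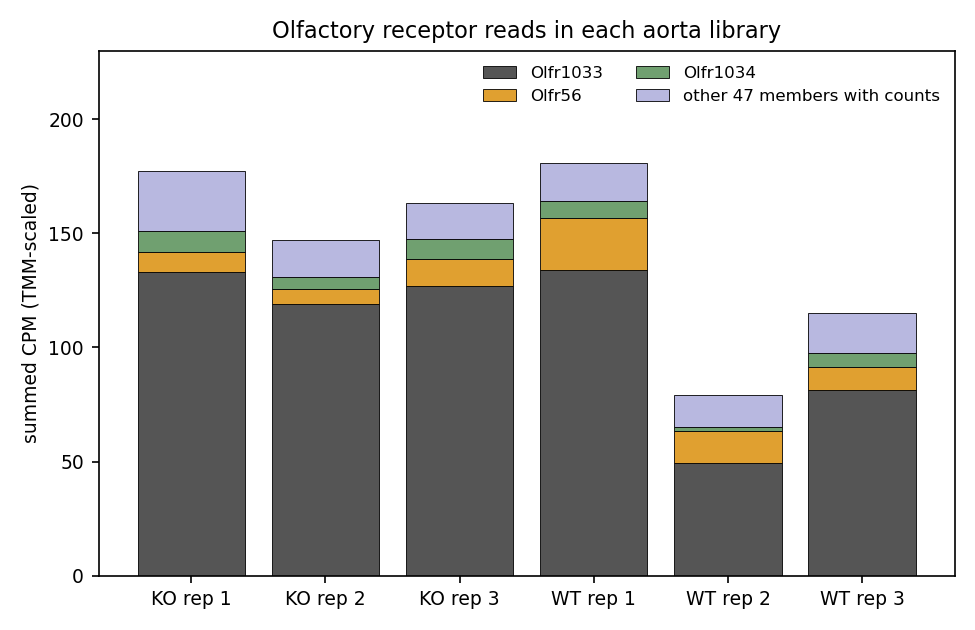
Stacked bars give the summed CPM (TMM-scaled, linear axis from 0) of olfactory receptor members in each KO and WT library, divided into Olfr1033, Olfr56, Olfr1034 and the other 47 members with counts. Olfr1033 makes up most of every bar, and WT replicates 2 and 3 have the lowest sums, at 79.3 and 115 CPM.

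The targeted gene gave no reads in either genotype. Olfr2 (ENSMUSG00000070417, chromosome 7, 106995399 to 107006072, minus strand, GRCm38) had 0 counts in all 3 KO libraries and in all 3 WT libraries. In WT this allows up to 0.163, 0.182 and 0.173 CPM by library, for counting error only, so the counts do not check the KO label. The surrounding cluster also had few reads, as did most of the family. Within 1 Mb of Olfr2, 5 of 38 Olfr genes had any count and 1 had at least 5. Over the whole family these numbers were 130 and 50 of 1407. The stretch around Olfr2 held 12 counts. Olfr700, the single other member there, had 3, 1 and 0 counts in KO libraries and 0, 1 and 0 in WT libraries.

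No member passed the test of KO against WT. The expression filter kept 13 members, and 0 of them had an adjusted p under 0.05 in edgeR's quasi-likelihood test, where 0.0123% of all 16237 genes did. At an unadjusted p under 0.05 there was 1 of 13, Olfr56, against 11.3% of all genes. KO means were higher for 10 members and lower for 3, beside 51.2% of all genes higher. With 1 library left out, the number higher among these 13 was 7 without KO replicate 1, 8 without WT replicate 1 or WT replicate 3, and 9 or 10 otherwise. The median log2 fold change was 0.3 over the 13 members and 0.006 over all genes, with median standard errors of 0.48 and 0.17. KO and WT libraries overlapped for each of the 13, whereas they did not overlap for 16.8% of all genes, 7.83% with KO above and 9.01% with KO below. A miss at this precision does not show that the genotypes had equal levels, since every interval in the plot of fold changes spans more than a doubling between its ends.

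**Figure D2:**
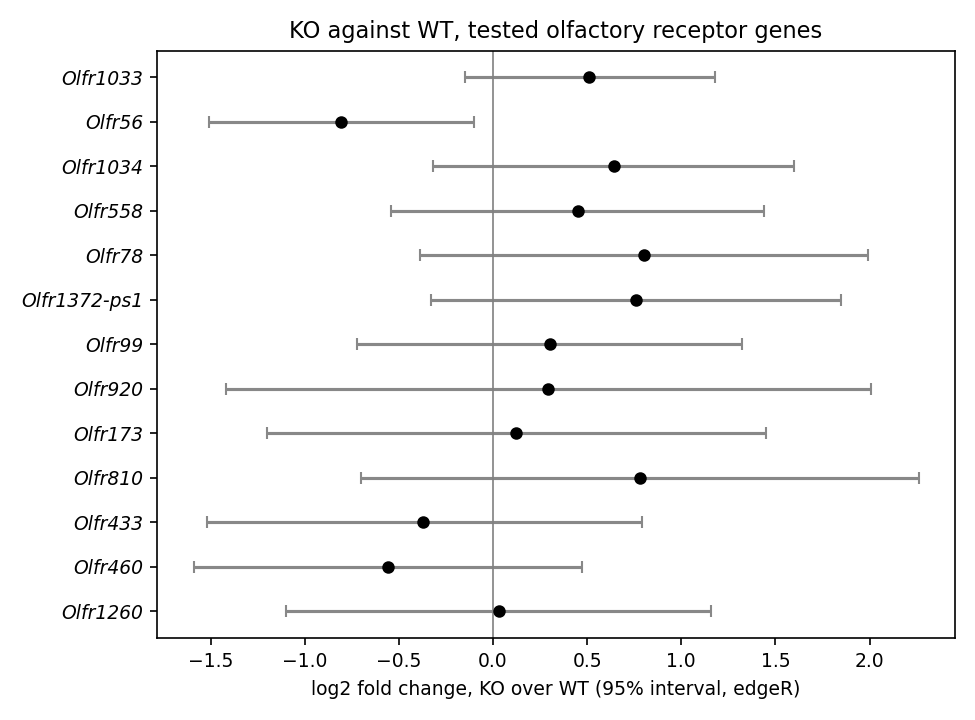
Points are log2 fold changes of KO over WT for the 13 tested olfactory receptor genes, ordered by summed counts, and bars are 95% intervals from edgeR's quasi-likelihood fit. The interval of Olfr56, from -1.51 to -0.10, excludes 0 before adjustment; the other 12 include 0.

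Olfr1033 (chromosome 2, 86020633 to 86045171, plus strand), whose ligand and role are not described here, was the most abundant receptor in every library. It had 133, 119 and 127 CPM in KO libraries and 134, 49.5 and 81.2 CPM in WT libraries. The KO libraries were close together, while WT replicate 1 matched the highest KO library and WT replicates 2 and 3 lay below all 3. The KO mean was 126 ± 7.19 CPM and the WT mean 88.4 ± 42.9 CPM (SD, n = 3 each). The log2 fold change was 0.51 (SE 0.29, 95% interval -0.15 to 1.18), and edgeR's quasi-likelihood test gave an adjusted p of 0.567. It was 0.95 without WT replicate 1 and 0.23 without WT replicate 2, and the adjusted p was 0.233 and 0.826. WT replicate 2, the lowest for Olfr1033, had the highest summed macrophage markers of the 6 libraries, at 5990 CPM. The sums were 3740, 4050 and 4790 CPM in KO libraries and 4000 and 4230 CPM in WT replicates 1 and 3. KO replicate 3, the next highest for these markers, had 127 CPM of Olfr1033. The 10 macrophage markers were all tested, with 4 higher and 6 lower in KO and 0 passing, and their part in the Olfr1033 level was not tested.

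Olfr1034 lies downstream of Olfr1033 on the same strand (86045861 to 86050742). It had 9.52, 5.47 and 8.81 CPM in KO libraries, against 7.23, 1.94 and 6.1 CPM in WT libraries. WT replicate 2 was again the lowest, and the genotypes overlapped. On the log2 scale KO was higher by 0.64 (SE 0.42), which edgeR's quasi-likelihood test gave an adjusted p of 0.647. This difference was 0.25 without WT replicate 2 and 0.98 without WT replicate 1. Counts of Olfr1034 as a percent of Olfr1033 counts ranged over libraries from 3.92% (WT replicate 2, exact 95% interval 2.66 to 5.58) to 7.51% (WT replicate 3, 6.11 to 9.16). KO libraries, at 7.16%, 4.61% and 6.94%, lay inside that range.

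Olfr56 (chromosome 11, 48978889 to 49135387, plus strand) was the member with the smallest p. Its annotation shares 111 exon bases on the same strand with Ifi47, an interferon-induced GTPase gene. These are 2.4% of the Olfr56 exon bases. Olfr56 had 8.66, 6.5 and 11.7 CPM in KO libraries, against 22.9, 13.8 and 10.4 CPM in WT libraries. KO replicate 3 lay above WT replicate 3, so the groups overlapped, and WT replicate 1 stood highest. The KO mean was 8.94 ± 2.59 CPM and the WT mean 15.7 ± 6.48 CPM (SD, n = 3 each). The log2 fold change was -0.81 (SE 0.31), with an unadjusted p of 0.029 and an adjusted p of 0.366 in the edgeR fit. It was -0.43 without WT replicate 1 and -1.05 without KO replicate 3.

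Ifi47 itself had 198, 181 and 251 CPM in KO libraries and 316, 389 and 323 CPM in WT libraries, with no overlap. The difference on the log2 scale was -0.71 (SE 0.15, edgeR adjusted p 0.138). Olfr56 counts were 4.38%, 3.6% and 4.64% of Ifi47 counts in KO libraries and 7.23%, 3.54% and 3.21% in WT libraries. WT replicate 1 was the highest, and the genotypes overlapped. Summed T cell markers also moved with genotype, at 106, 111 and 109 CPM in KO libraries and 155, 195 and 169 CPM in WT libraries. All 6 T cell markers were lower in KO at an unadjusted p under 0.05 in the edgeR fit, and 0 passed. Of all genes, 11.3% reached that p in either direction. The part of Ifi47 reads or of T cells in the Olfr56 difference was not tested.

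**Figure D3:**
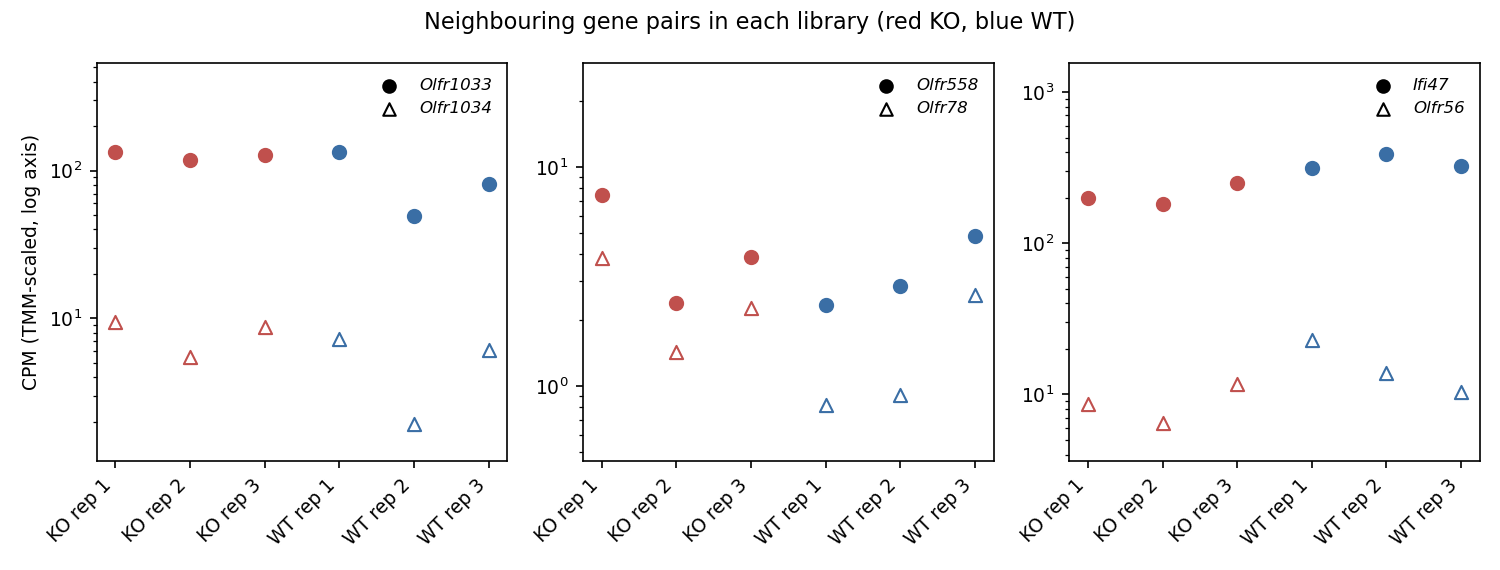
Each panel gives the CPM (TMM-scaled, log axis) of a pair of neighbouring genes in the 3 KO (red) and 3 WT (blue) libraries: Olfr1033 with Olfr1034, Olfr558 with Olfr78, and Ifi47 with Olfr56. Olfr1033 and Olfr1034 are both lowest in WT replicate 2, Olfr558 and Olfr78 are both highest in KO replicate 1, and Ifi47 is the single gene shown whose KO and WT libraries do not overlap.

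The class I receptors Olfr558 and Olfr78 are the mouse counterparts of human OR51E1 and OR51E2 and respond to short-chain fatty acids. Olfr78 is known in vascular smooth muscle, in the renin-producing cells of the kidney and in the carotid body, and Olfr558 is known in vascular smooth muscle. Olfr558 (chromosome 7, 102702215 to 102712064, plus strand) had 7.46, 2.4 and 3.87 CPM in KO libraries and 2.34, 2.85 and 4.83 CPM in WT libraries. The highest library was KO replicate 1, and KO replicate 2 lay near the lowest WT library. The log2 fold change was 0.45 (SE 0.44), with an edgeR adjusted p of 0.778, and became -0.09 without KO replicate 1.

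Olfr78 (chromosome 7, 102738511 to 102759471, minus strand) shares 926 exon bases with Olfr560 on the same strand, 15.3% of its exon bases. It had 3.84, 1.43 and 2.28 CPM in KO libraries, against 0.815, 0.909 and 2.59 CPM in WT libraries. WT replicate 3 lay above KO replicates 2 and 3, so the groups overlapped. The log2 fold change was 0.80 (SE 0.53, 95% interval -0.39 to 1.99), with an edgeR adjusted p of 0.638. Without WT replicate 3 it was 1.54 (adjusted p 0.282) and without KO replicate 1 it was 0.37 (adjusted p 0.931). Olfr78 counts as a percent of Olfr558 counts lay between 51.5% and 59.6% in KO libraries and between 31.9% and 53.6% in WT libraries. The exact 95% intervals of the extremes, 35.9 to 97.1 for KO replicate 2 and 16.6 to 58.1 for WT replicate 2, overlapped.

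Markers of smooth muscle, where both receptors are known, and of white adipocytes, not named above for either, differed between the libraries as well. Summed smooth muscle markers were 2490, 1580 and 2030 CPM in KO libraries and 1040, 1390 and 921 CPM in WT libraries. KO replicate 1 was highest for these markers and for both receptors. KO replicate 2, above every WT library for the markers, lay below WT replicates 2 and 3 for Olfr558 and above WT replicates 1 and 2 for Olfr78. WT replicate 3, lowest for the markers, had the highest WT values of both receptors, 4.83 and 2.59 CPM. All 6 smooth muscle markers had higher KO means, 5 at an unadjusted p under 0.05 in the edgeR fit, and 0 passed. Of all genes, 11.3% reached that p in either direction. White adipocyte markers summed to 1400, 953 and 736 CPM in KO libraries and 169, 219 and 678 CPM in WT libraries. Of 5 adipocyte markers, 5 had higher KO means, 3 at an unadjusted p under 0.05 (beside the same 11.3% of all genes), and 0 passed. No marker of either list was at 0 in all libraries. The part of these cells in the receptor levels was not tested.

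**Figure D4:**
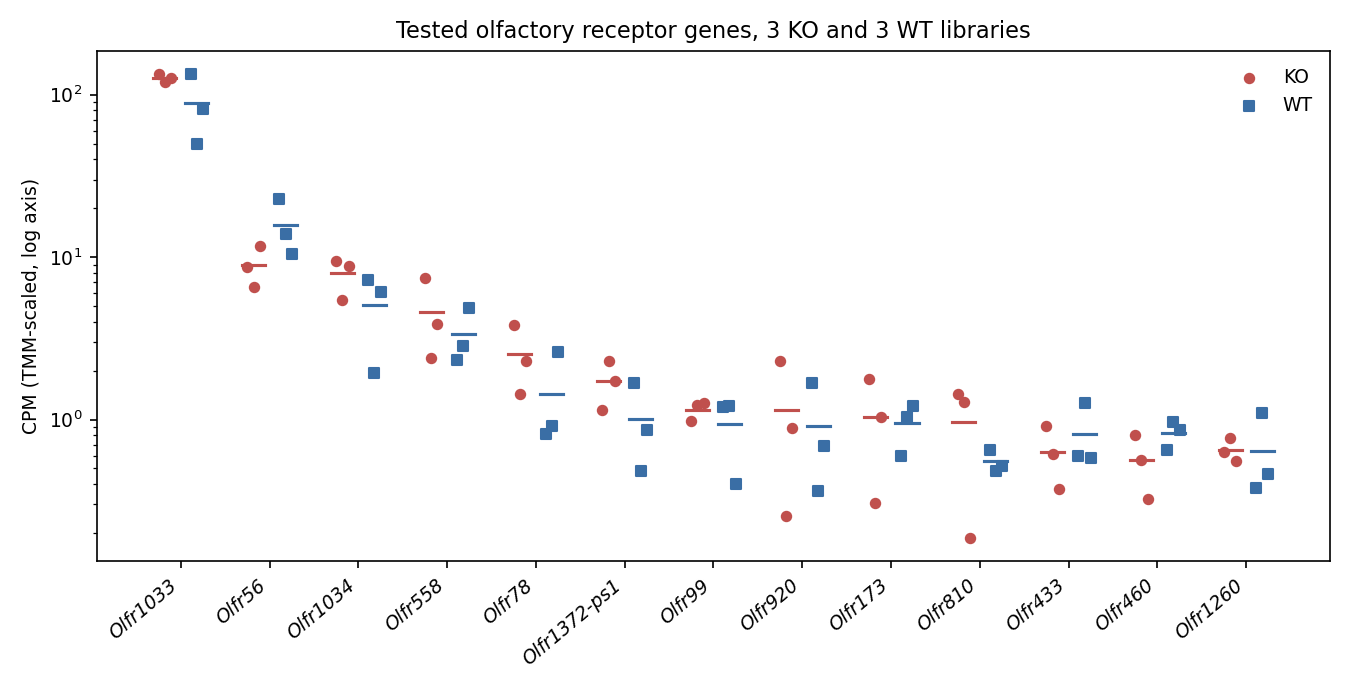
Points give the CPM (TMM-scaled, log axis) of the 13 tested olfactory receptor genes in each KO (circles) and WT (squares) library, and short lines give the genotype means. KO and WT points overlap for every gene, and Olfr1033, at 49.5 to 134 CPM, lies far above the rest.

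The other 8 tested members had group means under 2 CPM. Olfr1372-ps1, a pseudogene on chromosome 11, had 1.15, 2.3 and 1.72 CPM in KO libraries and 1.69, 0.485 and 0.863 CPM in WT libraries. KO replicate 1 lay below WT replicate 1, and the log2 fold change was 0.76 (SE 0.48, edgeR adjusted p 0.618). It was 1.34 without WT replicate 1 and 0.43 without WT replicate 2. Olfr810, a class II receptor gene on chromosome 10, had 1.43, 1.28 and 0.186 CPM in KO libraries and 0.652, 0.485 and 0.518 CPM in WT libraries. Its KO libraries were split, with replicate 3 below and replicates 1 and 2 above all WT libraries. KO replicate 3 also stood apart in skeletal muscle markers, which summed to 4.48, 3.63 and 817 CPM in KO libraries and 13.9, 4 and 3.11 CPM in WT libraries. None of these 5 markers was at 0 in all libraries, and their part in the Olfr810 level was not tested. Without KO replicate 3 the Olfr810 log2 fold change was 1.28 (edgeR adjusted p 0.38), against 0.78 with all libraries. Olfr920 on chromosome 9 was also uneven within both genotypes, at 2.3, 0.256 and 0.886 CPM in KO libraries and 1.69, 0.364 and 0.691 CPM in WT libraries.

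Olfr460 on chromosome 6 and Olfr433 on chromosome 1 had lower KO means. Olfr460 had 0.803, 0.563 and 0.326 CPM in KO libraries and 0.652, 0.97 and 0.863 CPM in WT libraries, a log2 fold change of -0.56 (SE 0.45), which was -0.28 without KO replicate 3 and -0.89 without KO replicate 1. Olfr433 averaged 0.635 ± 0.273 CPM in KO libraries and 0.816 ± 0.396 CPM in WT libraries (SD, n = 3 each). Both genes overlapped between genotypes. Olfr99, Olfr173 and Olfr1260 had log2 fold changes of 0.30 (SE 0.45), 0.12 (SE 0.59) and 0.03 (SE 0.50). Adjusted p-values of these 7 genes, Olfr810 and Olfr920 included, lay between 0.721 and 0.995 in the edgeR fit.

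The 38 members below the expression filter were Olfr2 and 37 genes with few reads. Fitted together with every gene of at least 5 summed counts, 23712 in all, 0 of 50 members passed by edgeR's quasi-likelihood test, where 0.0253% of all genes did. At an unadjusted p under 0.05 there were 3 of 50, against 9.55% of all genes. Mean CPM was higher in KO for 26 members and lower for 24, beside 51.7% of all genes with a higher KO mean. The median log2 fold change was 0.02 over the members and 0.012 over all genes. For the 15 members with 5 to 9 counts the median standard error was 1.54 on the log2 scale, so only very large differences were detectable at this depth.

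In 3 members every KO library lay below every WT library, where 7.6% of all genes in that fit did so. In the opposite direction there were 0 members, beside 7.09% of all genes. Olfr755-ps1, a pseudogene on chromosome 17, had 1, 1 and 1 counts in KO libraries and 6, 1 and 7 in WT libraries. All 3 KO libraries and WT replicate 2 had 1 count each, so their order rested on the library scaling. Olfr658, a class I gene on chromosome 7, had 0, 2 and 1 counts in KO libraries and 3, 4 and 4 in WT libraries. Olfr530 on chromosome 7 had 0 counts in each KO library and 2 in each WT library, all under the limit that 0 counts allow, so no fold is given. An exact two-sided permutation test of 3 against 3 gives 0.1, its smallest p, whenever groups separate, so it adds nothing for these 3. In edgeR's second fit the unadjusted p was 0.0474 for Olfr755-ps1, 0.0937 for Olfr658 and 0.0282 for Olfr530. Adjusted p-values there were 0.516, 0.608 and 0.44.

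Olfr457 on chromosome 6 had 3, 2 and 2 counts in KO libraries and 10, 3 and 2 in WT libraries, so its lower KO mean rested on WT replicate 1. A few members had nearly all their reads in one genotype. Olfr166 on chromosome 16 had 1, 8 and 3 counts in KO libraries and 0, 1 and 0 in WT libraries. Olfr1423 on chromosome 19 had 1, 0 and 4 counts in KO libraries and 0 in each WT library. Olfr31 on chromosome 14 had 0 in each KO library and 4, 1 and 0 in WT libraries, and 22.7% of its exon bases overlap Gm48860 on the opposite strand. None passed: the unadjusted p in edgeR's quasi-likelihood fit was 0.051 for Olfr166, 0.0926 for Olfr1423 and 0.0736 for Olfr31. In genes with so few reads a member could reach the rule through a single library, as Olfr1423 nearly did.

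Olfr1396 and Olfr60 had the most reads among the members below the filter. Olfr1396, within the span of Olfr56 on the opposite strand, had 10, 18 and 6 counts in KO libraries and 5, 5 and 8 in WT libraries. Olfr60 on chromosome 7 had 7, 12 and 0 counts in KO libraries and 8, 6 and 3 in WT libraries. Both overlapped between genotypes. Of receptors known outside the nose, Olfr544, a receptor for azelaic acid described in liver and fat, had 1, 0 and 5 counts in KO libraries and 0, 5 and 2 in WT libraries. Olfr1393, described in the kidney proximal tubule, had 3, 0 and 2 counts in KO libraries and 5, 0 and 1 in WT libraries. Its 50-base windows were shared with other genes in 30.1% of cases, mostly with Olfr1392, so its reads are uncertain.

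The 51 members lay in 24 groups on the genome when genes within 500 kb were joined. A single member made up 12 of the groups, and another held Olfr700 beside Olfr2, which had 0 counts. The largest group, on chromosome 17 from 37168313 to 37532449, held 8 members of 25 Olfr genes in that span, beside class Ib histocompatibility genes such as H2-M3. Its members had 1.43, 2.2 and 1.91 CPM in all in KO libraries and 2.61, 1.76 and 1.61 CPM in WT libraries. On chromosome 11, from 48978889 to 49295891, all 6 Olfr genes in the span were members, Olfr56 among them. The class I group on chromosome 7, from 102476579 to 102759471, held 5 members of 20 Olfr genes, which together had 11.5, 3.94 and 6.67 CPM in KO libraries and 3.64, 4.12 and 7.6 CPM in WT libraries. The genotypes overlapped in this group, and KO replicate 1 was the highest.

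Detected members lay nearer to other genes than the rest of the family. The median distance to the nearest protein-coding gene outside the family was 19235 bp for the 50 members with counts and 136199 bp for the 1357 other Olfr genes. Of the members, 28 of 50 (56%) lay within 25 kb of such a gene, against 159 of 1357 (11.7%). Among protein-coding Olfr genes alone the shares were 54.3% and 12%. Members also had longer annotated exons, with a median of 3.3 kb against 2.51 kb, or 3.3 kb against 2.95 kb among protein-coding genes. These shares describe the annotation, neighbouring members share their position, and no test was run. The exceptions include the most abundant gene: Olfr1033 lay 501609 bp from the nearest such gene. Among the nearest, Olfr94 lay 330 bp from Ubd and Olfr460 lay 551 bp from Clec5a, a myeloid receptor gene, while the span of Olfr56 overlapped Gm12185.

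**Figure D5:**
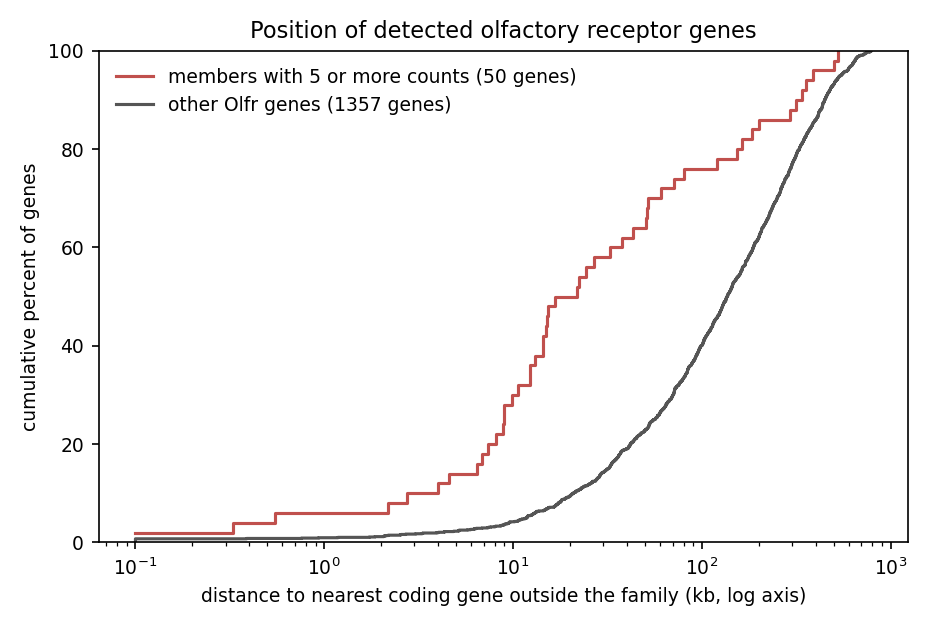
Cumulative percent of genes by distance to the nearest protein-coding gene outside the family (kb, log axis, distances under 0.1 kb drawn at the left edge) for the 50 members with counts (red) and the 1357 other Olfr genes (grey). The members' curve lies to the left, with 56% within 25 kb against 11.7%.

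Sequences from 250 bases before to 50 bases after the RefSeq start site, called promoters here, were available for 37 of the 51 members. Where RefSeq holds only the coding part of a gene, such a window need not cover the start of transcription. The motif TCCCNNGGGA, bound by early B cell factors, occurred on either strand in 2 of 37 members (5.4%), in 3 of 911 other Olfr promoters (0.3%) and in 0.9% of all 32851 promoters. TAATTA, a homeodomain motif, occurred in 10.8% of members, 18.9% of other Olfr promoters and 5.3% of all promoters. GAAANNGAAA, the core of an interferon response element, occurred in 2.7%, 7.2% and 3.4%, and the CArG box of smooth muscle genes in 0 members, 1.9% and 1.6%. The 2 members with the first motif were Olfr99 and Olfr98, neighbours on chromosome 17, whose promoters aligned over 289 bases with 88.6% identity. They are shown with the motif in capitals (GRCm38.p6, minus strand; chr17:37280369-37280668 for Olfr99 and chr17:37263613-37263912 for Olfr98), 5′ to 3′.
Olfr99: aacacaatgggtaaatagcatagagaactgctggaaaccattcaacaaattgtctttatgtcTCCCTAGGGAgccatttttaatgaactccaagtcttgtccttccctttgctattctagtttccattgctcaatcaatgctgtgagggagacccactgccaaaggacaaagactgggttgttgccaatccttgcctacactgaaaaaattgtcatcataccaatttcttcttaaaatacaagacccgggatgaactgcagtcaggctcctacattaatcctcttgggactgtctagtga
Olfr98: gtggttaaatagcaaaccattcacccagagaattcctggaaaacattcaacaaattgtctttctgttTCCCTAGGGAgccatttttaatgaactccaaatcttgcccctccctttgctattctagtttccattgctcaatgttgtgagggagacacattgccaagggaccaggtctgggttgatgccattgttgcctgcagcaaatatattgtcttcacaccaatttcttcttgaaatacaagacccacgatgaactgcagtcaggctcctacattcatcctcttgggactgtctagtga

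The motif began 188 bases before the RefSeq start site in Olfr99 and 183 bases before it in Olfr98. In GENCODE, Olfr99 spans 37279043 to 37283460 on the minus strand, so its window lies inside the annotated gene. The GENCODE 5′ end of Olfr98, at 37263749, also falls within its window. The read counts of the pair were far apart. Olfr99 had 17, 24 and 27 counts in KO libraries and 22, 20 and 7 in WT libraries, whereas Olfr98 had 0, 2 and 0 in KO libraries and 3, 0 and 1 in WT libraries. Exon windows of Olfr98 were shared with other genes in 60.7% of cases, against 9.1% for Olfr99. In addition, 34.1% of the Olfr98 exon bases overlap Gm20429 on the opposite strand. The reads of Olfr98 are thus uncertain, and the part of shared sequence in the contrast was not tested. A match to a motif is a description of the letters in the promoter window, not evidence of a bound site.

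A list of 27 genes for the signalling, transport or control of olfactory receptors was also followed. Some of them, such as Gnal and Adcy3, are used by other cells too, so their reads do not show an olfactory pathway. Of the 27 genes 18 were tested, with 8 higher and 10 lower in KO and 0 passing. Another 6 never exceeded 3 counts in a library: Gng13, Cnga2, Cnga4, Stoml3, Rtp1 and Rtp2. The sensory neuron G protein gene Gnal averaged 8.74 ± 2.24 CPM in KO libraries and 10.5 ± 0.92 CPM in WT libraries (SD, n = 3 each). Adcy3, the cyclase, averaged 21.8 ± 4.23 CPM in KO libraries and 22 ± 1.19 CPM in WT libraries. Rtp4, a receptor chaperone gene that interferon induces, averaged 123 ± 23.8 CPM in KO libraries and 231 ± 69.5 CPM in WT libraries. That difference was -0.91 on the log2 scale (SE 0.22, edgeR adjusted p 0.166), the smallest p of the list. Rtp1 and Rtp2, the chaperones of the nose, had 0 counts in all 6 libraries.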

How the data were processed

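Poly-A RNA of abdominal aorta was sequenced after random priming, per the labels' protocols. The authors deposited raw read counts per gene, and the submitters' processing notes name HISAT2 2.0.5, featureCounts 1.5.0-p3 and GRCm38. The sources used here give no strand setting, annotation release or handling of reads that match several genes. Reads of overlapping or near-identical Olfr genes can thus be shared or dropped, and 8 members have exons that overlap another gene's.

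The test used edgeR 4.0.16 in R 4.3.3: filterByExpr by genotype, TMM, and the quasi-likelihood test of KO against WT with p-values adjusted by Benjamini-Hochberg over every gene tested (threshold 0.05). The standard error was the log2 fold change divided by the square root of F. A second fit kept genes with 5 or more summed counts. Counting intervals (Clopper-Pearson) and the limit of 3 counts cover counting error only. All p-values use 3 libraries a genotype, and the code was tested on simulated data. Positions and exons came from GENCODE release M21, which matched 1407 of 1407 Olfr identifiers, and shared sequence was the percent of 50-base exon windows found exactly in another gene. Promoter windows were set by RefSeq start sites and aligned with Biopython 1.88. Figures used matplotlib 3.10.9. No 2 libraries agreed within sampling noise.

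Genes were named by a rule: Olfr2, members that pass the filter, the 12 with the most counts, those whose genotypes do not overlap, up to 6 a direction with the smallest p in the second fit, members within 1 Mb of Olfr2, 4 receptors known outside the nose, and 2 genes on each side of the count rule. Olfr1396, Olfr60, Olfr98 and signalling genes were added after their values were seen. Members and lists were chosen with earlier results of these data known. Alternatives were other scalings, filters, DESeq2 1.42.0, limma-voom (limma 3.58.1), a robust fit, each library left out in turn and a replicate block.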

Additional observations from a re-analysis of the deposited data

How the results depend on the processing

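No member passed at an adjusted p under 0.05 in the reported fit or under any alternative run, and the lowest adjusted p was 0.06, for Olfr56 with no filter on low counts. Of 191 alternative values of the tested members, 179 kept their direction and 12 turned it. Olfr173, at 0.12, gave -0.14 with limma-voom, -0.04 with the replicate block, -0.49 without KO replicate 1 and -0.12 without WT replicate 1. Olfr1260, at 0.03, gave -0.10 without KO replicate 2, -0.24 without WT replicate 1 and -0.16 without WT replicate 3. Olfr920 gave -0.67 without KO replicate 1 and -0.07 without WT replicate 2, Olfr558 gave -0.09 without KO replicate 1, Olfr433 gave 0.10 without WT replicate 2, and Olfr99 gave -0.06 without WT replicate 3. Leaving out other single libraries gave at most 0.82 for Olfr558, 0.52 for Olfr99, 1.09 for Olfr920, 0.56 for Olfr173 and 0.63 for Olfr1260, and -0.72 at the lowest for Olfr433. The cause was not tested.

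Over all genes 2 passed as reported, 644 with no filter, 6 with at least 5 summed counts, 454 with DESeq2, 0 with limma-voom, 1 with the robust fit and 0 with the replicate block, and leaving out 1 library gave 0 to 155, the most without WT replicate 3. DESeq2 gave 9 of the 13 members an adjusted p. Deviations of libraries with the same replicate number correlated at -0.1, -0.09 and -0.09, and those of other KO and WT libraries at 0.02 to 0.08. With 3 libraries a genotype, whose deviations sum to 0, these values cannot decide whether the numbers pair the libraries. The log2 ratio of the members' summed CPM lay between 0.13 (without WT replicate 2) and 0.74 (without WT replicate 1). By mean CPM 26 members were higher in KO and 24 lower; with at least 10 counts it was 20 and 15, and with at least 1 count 67 and 63. Low counts limit every statement on the 38 untested members.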
